A study of Arabidopsis thaliana with 9 samples.

Results

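The early auxin-induced Aux/IAA genes are 9 repressor genes of auxin signalling, IAA1 (AT4G14560), IAA2 (AT3G23030), IAA3 (AT1G04240), IAA4 (AT5G43700), IAA5 (AT1G15580), IAA6 (AT1G52830), IAA15 (AT1G80390), IAA19 (AT3G15540) and IAA29 (AT4G32280). They were chosen by locus identifier from the 31124 loci of the deposited table, not by measured values but with earlier results of these data known. Their RNA was measured in the oscillation zone of Arabidopsis thaliana roots, the stretch behind the tip where future lateral root sites are set. The groups were potent (a line altered in IAA18, according to the series title), arf7 (altered in ARF7, an auxin response factor gene) and a wild-type Col0 control taken at its oscillation minimum, with 3 samples each. All plants were 7 dpi and the zones were cut by hand after DR5::Luciferase, a reporter of auxin response, had been followed. The labels do not give the alleles, the oscillation phase of the potent and arf7 samples, or the number of roots in a sample. No auxin was applied, so the inducibility in the name of the group was not measured here.

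Aux/IAA proteins are short-lived nuclear repressors that bind auxin response factors (ARFs) and bring the TOPLESS corepressor to their target genes. Auxin joins an Aux/IAA protein to the F-box receptors TIR1 and AFB, which leads to its ubiquitination and breakdown and frees the ARFs to act. Many Aux/IAA genes are themselves transcribed soon after auxin treatment, so the pathway makes its own repressors. ARF7 is an activating ARF of the lateral root pathway.

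Each genotype has a single deposited value per locus, in FPKM (sequenced fragments divided by transcript length and by the library total), in which the authors had already combined the 3 samples. The spread between samples and the depth are therefore unknown, and no test could be made. The only test in the files is the authors' deposited comparison table, which lists loci that differ from the control. None of the 9 genes is in it for potent or for arf7, beside 7.36% of the loci above 0 that are listed for potent and 4.57% for arf7. The values below are thus described as higher or lower, with no call of a change, and genes next to each other in the order of levels cannot be said to differ. In bulk samples such as these, fewer cells of a type and less RNA per cell cannot be told apart.

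The 9 genes are short. In RefSeq's annotation of assembly TAIR10.1 their coding sequences span 129 codons in IAA15 to 251 in IAA29, in 2 to 4 exons. Some are close relatives: the coding sequences of IAA1 and IAA2 were identical at 85.1% of aligned bases, those of IAA3 and IAA4 at 83.3%, and those of IAA6 and IAA19 at 76.3%. Reads from near-identical stretches of such pairs could be split between them, so the pair values are uncertain to that extent. IAA1, IAA2 and IAA3 also stand head to head with another Aux/IAA gene, with no protein-coding gene between: IAA1 beside IAA14 (10732 bases apart), IAA2 beside IAA7 (12510 bases) and IAA3 beside IAA17 (6388 bases).

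The sequences before the genes are shown because ARFs bind auxin response elements there, and because the genes differ in where such elements lie. The canonical element TGTCTC and the variant TGTCGG were searched on both strands, where they read GAGACA and CCGACA when reversed. No matches overlapped. Of the 9 genes, 4 have a match within the 250 bases before the annotated gene start (IAA1, IAA5, IAA6 and IAA19), against 14.7% of 27443 windows of that length before protein-coding genes. Among the 20 other Aux/IAA genes 9 have one. Those 4 windows are given here from TAIR10.1, whose nuclear chromosomes are those of TAIR10, 5′ to 3′ on the gene's strand, with matches in capitals. They are chr3:5263751-5264000 (plus strand) for IAA19, chr1:19673653-19673902 (minus) for IAA6, chr4:8360746-8360995 (plus) for IAA1 and chr1:5366498-5366747 (minus) for IAA5.
IAA19: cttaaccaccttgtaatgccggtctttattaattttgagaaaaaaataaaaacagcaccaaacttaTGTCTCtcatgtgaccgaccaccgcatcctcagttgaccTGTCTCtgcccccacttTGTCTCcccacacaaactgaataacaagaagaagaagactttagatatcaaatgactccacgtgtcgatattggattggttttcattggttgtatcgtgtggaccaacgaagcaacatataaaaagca
IAA6: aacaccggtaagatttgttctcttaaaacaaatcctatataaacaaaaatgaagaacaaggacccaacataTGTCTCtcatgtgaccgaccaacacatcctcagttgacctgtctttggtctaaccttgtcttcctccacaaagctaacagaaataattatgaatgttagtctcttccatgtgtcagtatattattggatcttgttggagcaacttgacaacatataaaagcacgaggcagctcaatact
IAA1: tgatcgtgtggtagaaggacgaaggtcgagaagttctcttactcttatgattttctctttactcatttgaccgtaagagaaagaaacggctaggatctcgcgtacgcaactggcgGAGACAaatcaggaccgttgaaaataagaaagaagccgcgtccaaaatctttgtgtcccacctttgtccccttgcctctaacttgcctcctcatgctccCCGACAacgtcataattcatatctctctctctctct
IAA5: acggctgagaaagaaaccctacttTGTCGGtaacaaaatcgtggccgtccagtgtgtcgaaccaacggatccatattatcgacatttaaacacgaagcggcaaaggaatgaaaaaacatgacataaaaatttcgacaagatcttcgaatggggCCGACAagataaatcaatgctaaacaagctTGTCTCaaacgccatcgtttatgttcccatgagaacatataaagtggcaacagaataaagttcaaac

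IAA19 holds TGTCTC at 184, 145 and 128 bases before its start, the most canonical matches of any member in this window. The first of them lies in a run of 23 bases, tatgtctctcatgtgaccgacca, that IAA6 shares at nearly the same distance, the longest run common to any 2 of the 9 windows. IAA5 has 3 matches, the variant at 226 and 97 bases and the canonical element at 67 bases. IAA1 has the canonical element at 135 bases and the variant at 36 bases.

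IAA2, IAA3, IAA4, IAA15 and IAA29 have no match in that window. Within 1000 bases, where 48.3% of all windows hold a match, IAA15 alone has none. IAA3 and IAA4 each carry a pair of canonical elements in reverse, at 394 and 386 bases in IAA3 and at 523 and 515 bases in IAA4, inside a shared run of 18 bases. The stretches of 60 bases around the pairs are chr1:1130047-1130106 (minus strand) for IAA3 and chr5:17549633-17549692 (plus) for IAA4. For IAA2 the annotated start matters: its earliest RefSeq transcript begins 242 bases downstream of the gene start, and 29 bases before that transcript lies a variant match, shown as the 30 bases of chr3:8181865-8181894 (minus). From that start, IAA2 would join the genes with a nearby element.
IAA3: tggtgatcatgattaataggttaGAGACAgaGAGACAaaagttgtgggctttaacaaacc
IAA4: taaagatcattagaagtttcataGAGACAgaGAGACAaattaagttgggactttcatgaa
IAA2: cctttcatgcttCCGACAacacttctctct

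**Figure D1:**
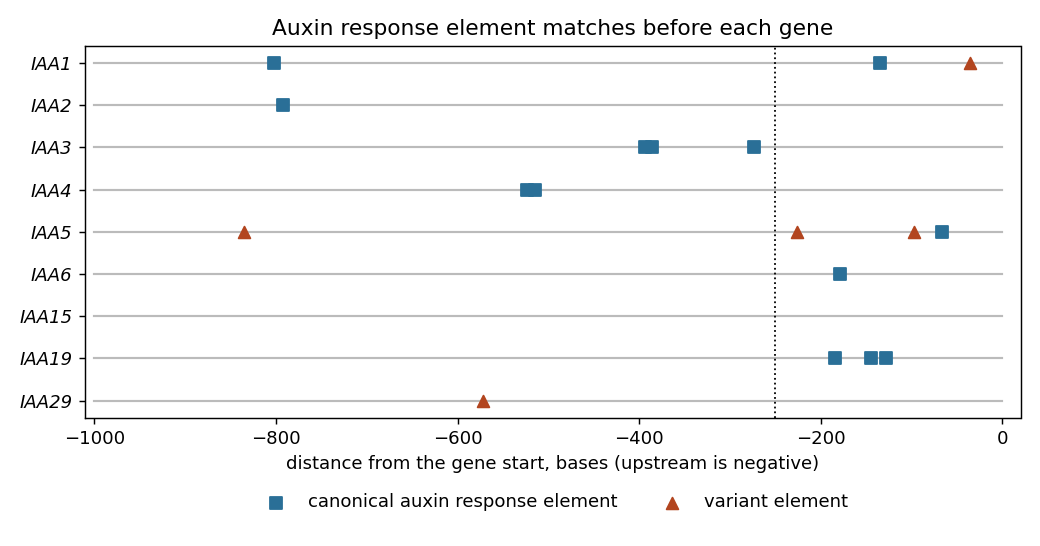
Matches to the canonical auxin response element (squares) and its variant (triangles) in the 1000 bases before the annotated start of each gene, on either strand; the x axis is distance from the start in bases and the dotted line marks 250 bases. IAA1, IAA5, IAA6 and IAA19 have matches right of the line, and IAA3 and IAA4 each have a close pair left of it.

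In each genotype 4 genes, IAA2, IAA4, IAA19 and IAA3, held nearly all of the group's RNA. Together they made up 97.7% of the summed FPKM of the 9 genes in potent, 99.4% in arf7 and 97.4% in the control. IAA2, whose promoter is widely used as an auxin response reporter, was the highest, with 129.0 FPKM in potent, 77.0 in arf7 and 49.3 in the control. IAA4, first described as the auxin-inducible gene AtAux2-11, came next, with 63.2 FPKM in potent, 55.1 in arf7 and 30.6 in the control. The sum over the 9 genes was 252.0 FPKM in potent, 170.0 in arf7 and 111.0 in the control. That was 14.0% of the summed FPKM of the 28 Aux/IAA genes analysed in potent, 8.98% in arf7 and 7.75% in the control.

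The other 5 genes were low or listed at 0. IAA1 had 3.71 FPKM in potent, 0.636 in arf7 and 2.19 in the control. IAA5 had 1.69 FPKM in potent, was listed at 0 in arf7 and had 0.131 in the control. IAA29, known as a target of phytochrome-interacting factors in shade-grown seedlings, lay between 0.349 and 0.494 FPKM in the 3 genotypes. IAA6 was listed at 0 in both mutants and had 0.0622 FPKM in the control, and IAA15 was listed at 0 in all 3. A listed 0 can be a failed estimate in such tables, so no fold is given against it.

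**Figure D2:**
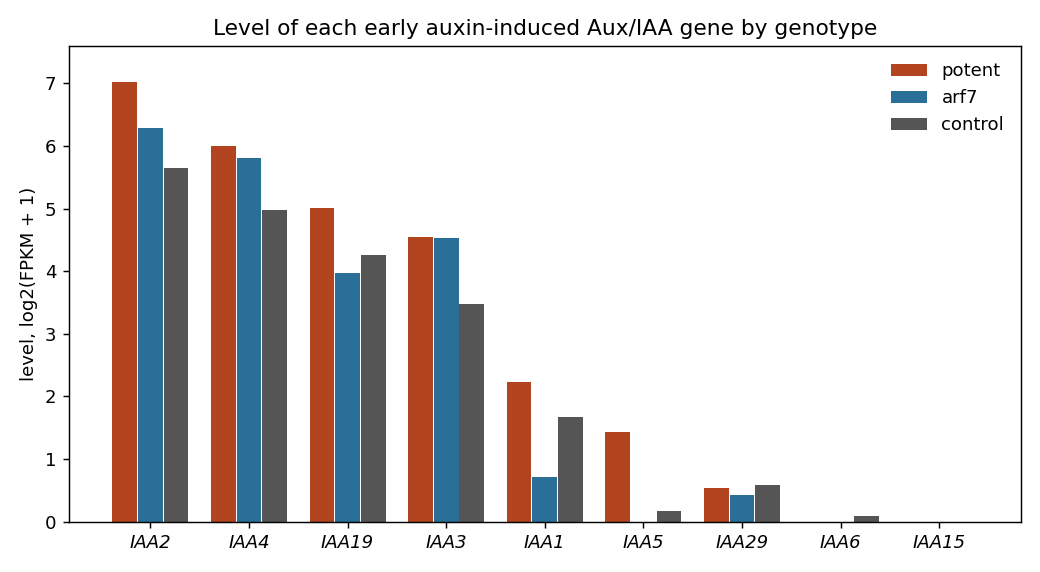
Level of each gene as log2(FPKM + 1), 1 value per genotype in potent (red), arf7 (blue) and the control (grey), ordered by the mean. IAA2 leads in every genotype, IAA19 is above IAA3 in potent and in the control but below it in arf7, and IAA6 and IAA15 are at or near 0.

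The comparison of potent with the control set the IAA18 line beside a control taken at its oscillation minimum. The phase of the potent and arf7 samples is not given, so genotype and phase cannot be told apart against this control. IAA2, IAA3, IAA4 and IAA5 were at least 2-fold higher in potent on the log2(FPKM + 1) scale, and no member was 2-fold lower. This is 4 of 9 genes, against a background of 17.5% of 21486 loci that were at least 2-fold higher and 14.1% at least 2-fold lower. By any amount, 6 of the 9 were higher (51.4% of loci) and 2 were lower (48.6% of loci). The median log2 ratio of the 9 was 0.76, and that of all loci above 0 in either group was 0.026. With a pseudocount of 5 IAA2 alone stays past 2-fold, with IAA3 at 0.86, IAA4 at 0.94 and IAA5 at 0.38 on the log2 scale, and the median is 0.38.

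IAA2 had 129.0 FPKM in potent and 49.3 in the control, a ratio of 2.62 and the highest log2 ratio of the group at 1.37. Its difference was above that of 88.5% of loci. IAA3, also called SHY2, a repressor that limits root meristem size where auxin and cytokinin meet, had 22.5 FPKM in potent and 10.1 in the control, 2.22-fold. IAA4, its close relative, differed almost as much, with 63.2 and 30.6 FPKM in potent and the control, 2.06-fold. IAA5 had the largest plain ratio, 12.9, but both of its values were low, 1.69 FPKM in potent and 0.131 in the control.

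IAA19, also called MSG2, a repressor of growth curvature and lateral root formation that acts with ARF7 in seedlings, had 31.4 FPKM in potent and 18.1 in the control, 1.74-fold. IAA1, also called AXR5, had 3.71 FPKM in potent and 2.19 in the control, 1.70-fold. Neither reached 2-fold. IAA29 and IAA6 were the lower pair, with log2 ratios of -0.04 and -0.09.

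In the comparison of arf7 with the control the group split. IAA2, IAA3 and IAA4 had higher values in arf7, while IAA1, IAA5, IAA6, IAA19 and IAA29 had lower ones, where 50.0% of loci were higher and 50.0% lower by any amount. IAA3 alone was at least 2-fold higher, with 22.1 FPKM in arf7 and 10.1 in the control, 2.18-fold, and none was 2-fold lower on the log2(FPKM + 1) scale. That is 1 of 9 genes, beside a background of 12.9% of 21771 loci at least 2-fold higher and 11.2% at least 2-fold lower, so the share past 2-fold was near the background. The median log2 ratio of the 9 was -0.09, and that of all loci -0.001. The sign of this median depends on the low members: it was 0.63 over those at 1 FPKM or more in either group and 0.24 over those above 0 in all genotypes. With a pseudocount of 5 no member passed 2-fold in arf7.

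IAA4 had 55.1 FPKM in arf7 and 30.6 in the control, 1.80-fold, and IAA2 had 77.0 and 49.3 FPKM in arf7 and the control, 1.56-fold. IAA1 lay farthest below the control, with 0.636 FPKM in arf7 and 2.19 in the control, a ratio of 0.291 and a log2 ratio of -0.96 with the pseudocount of 1. With a pseudocount of 0.1, IAA1 and IAA5 are 2-fold lower in arf7. IAA19 had 14.7 FPKM in arf7 and 18.1 in the control, a ratio of 0.812. None of these differences has a replicate spread behind it.

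**Figure D3:**
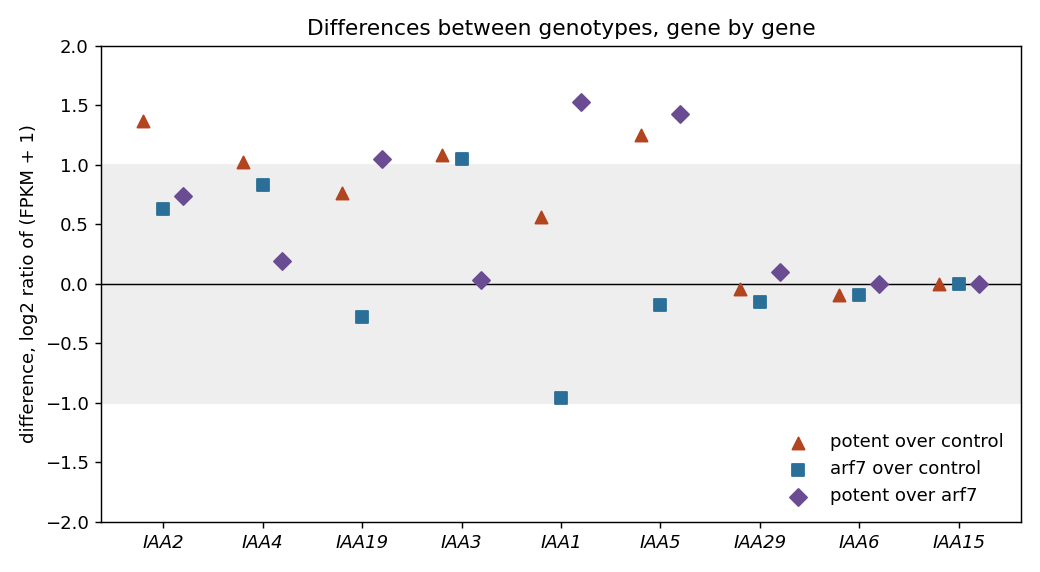
Difference between genotypes for each gene as the log2 ratio of (FPKM + 1), for potent over control (triangles), arf7 over control (squares) and potent over arf7 (diamonds); the grey band marks less than 2-fold. IAA2, IAA3 and IAA4 have both lines above the control, and IAA1, IAA5 and IAA19 have potent above it and arf7 below it.

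Set side by side, the 2 lines sort the genes into 3 orders. IAA2, IAA3 and IAA4 lay above the control in both lines, an order held by 36.0% of the 22315 loci above 0 in any genotype. IAA1, IAA5 and IAA19 lay above it in potent and below it in arf7, an order held by 11.0% of those loci. IAA6 and IAA29 lay below it in both (37.8% of loci). IAA5 in arf7 and IAA6 in both lines were listed at 0, against 0.131 and 0.0622 FPKM in the control. IAA29 lay between 0.349 and 0.494 FPKM in the 3 genotypes. The control samples are shared by both comparisons, so the positions in the 2 lines are not independent.

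Potent and arf7 were also compared directly, which does not involve the control. No member was lower in potent than in arf7, 7 were higher and 2 were equal, both at 0. By any amount, 50.4% of 21630 loci were higher in potent and 49.6% were lower. IAA1, IAA5 and IAA19 were at least 2-fold higher in potent, 3 of 9 genes against 8.57% of loci, while none was 2-fold lower (5.62% of loci). With a pseudocount of 5 none of the 3 passed. IAA1 had 3.71 FPKM in potent and 0.636 in arf7, 5.84-fold. IAA19 had 31.4 FPKM in potent and 14.7 in arf7, 2.14-fold. IAA3 hardly differed, with 22.5 FPKM in potent and 22.1 in arf7, and the sign of its difference changes when the genotypes are scaled to equal sums. IAA4 had 63.2 and 55.1 FPKM in potent and arf7, 1.15-fold.

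**Figure D4:**
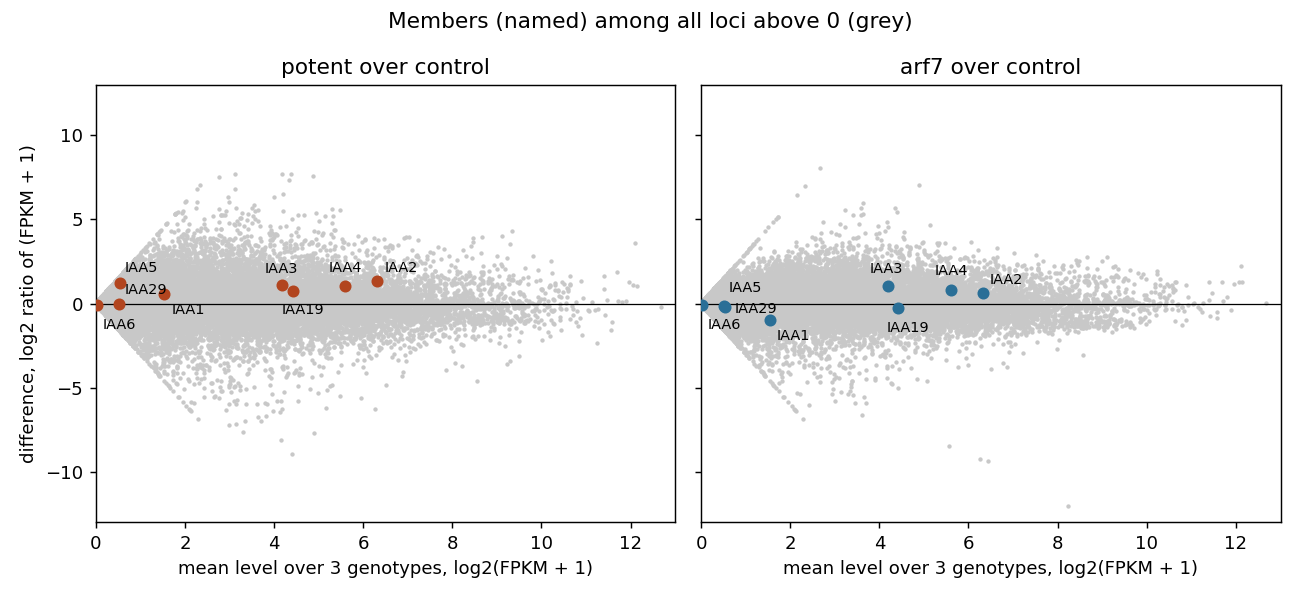
Log2 ratio of (FPKM + 1) against the mean level for all loci above 0 in any genotype (grey) and the 8 members above 0 (named), for potent over control (left) and arf7 over control (right). IAA2, IAA3 and IAA4 lie above the zero line in both panels, and the 8 lie inside the cloud of loci at their level.

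Ratios between some members were then compared across the genotypes, with the limit that reads of close relatives could be split between them. IAA2 exceeded its relative IAA1 by 34.7 times in potent, 121.0 times in arf7 and 22.5 times in the control. The ratio in arf7 rests on IAA1 at 0.636 FPKM. IAA4 exceeded IAA3 by 2.81 times in potent, 2.50 times in arf7 and 3.03 times in the control, so that pair kept nearly the same proportion. IAA19 and IAA3 are less alike, with 68.7% of aligned coding bases identical. IAA19 exceeded IAA3 by 1.40 times in potent and 1.79 times in the control, but stood at 0.666 of IAA3 in arf7. IAA6, the relative of IAA19 that shares its promoter run, was at 0 in potent and arf7 and close to 0 in the control.

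The positions of the auxin response elements were then set beside these values. The 4 genes with a match within 250 bases of the gene start, IAA1, IAA5, IAA6 and IAA19, all had lower values in arf7 than in the control. Of the 4 others above 0, IAA2, IAA3 and IAA4 were higher in arf7 and IAA29 was lower. The same was not seen elsewhere. All 7 other Aux/IAA genes with a match in that window and a value above 0 in arf7 or the control were higher in arf7. Those without a match were higher too in 9 of 10 cases. Of the 2942 protein-coding loci with a match, 50.3% were lower in arf7, the same share as the 50.3% of 17024 without one. Of the 4 members with a match, IAA5 and IAA6 are lower only as a listed 0 in arf7 against 0.131 and 0.0622 FPKM in the control. IAA1, IAA5 and IAA6 are below 4 FPKM in every genotype. Counting IAA2 from its earliest transcript adds a gene with a match that was higher in arf7. A match is a description of letters and not a binding site.

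The rest of the family gave the setting. Of the 20 other Aux/IAA genes 19 were analysed, and 1 of them, IAA13, rose in both lines: the authors' deposited table gives it a log2 fold change of 1.68 in potent (q = 0.00772) and of 1.95 in arf7 (q = 0.00145). In potent 5 of the 19 were at least 2-fold higher (IAA11, IAA13, IAA26, IAA27 and IAA31, of which all but IAA13 are named after their values were seen) and none was 2-fold lower, beside the 17.5% and 14.1% of all loci given above. Their median log2 ratio was 0.63. In arf7 2 of the 19, IAA13 and IAA27, were at least 2-fold higher and none 2-fold lower, beside 12.9% and 11.2% of loci. By any amount, 16 of the 19 had higher values in arf7 than in the control (50.0% of loci) and 1, IAA7, was lower, with a median of 0.36. IAA7 was also lower in potent, so none of the 19 had the order of IAA1, IAA5 and IAA19, with potent above and arf7 below the control. For IAA5 that order rests on a listed 0 in arf7.

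The family's most abundant members were outside the early auxin-induced group. IAA17, also called AXR3, had 444 FPKM in potent, 491 in arf7 and 455 in the control, and IAA9 had 404, 393 and 261 FPKM in potent, arf7 and the control. The head-to-head neighbours did not share the differences of the 9 genes. IAA17 stood at 0.976 of the control in potent and 1.08 in arf7 while its neighbour IAA3 was over 2-fold higher in both lines. IAA7, also called AXR2, had 44.0 FPKM in potent, 72.6 in arf7 and 86.1 in the control, lower where its neighbour IAA2 was higher. IAA14, the SOLITARY-ROOT repressor of lateral root initiation, had 81.0 FPKM in potent, 107 in arf7 and 97.4 in the control, beside the low IAA1.

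**Figure D5:**
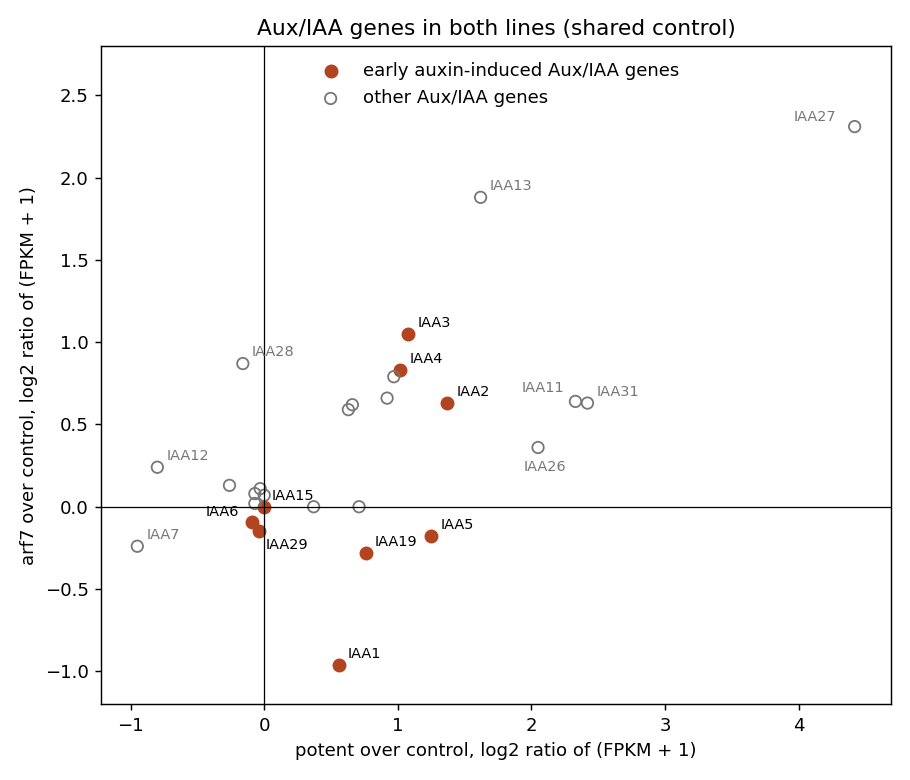
Log2 ratio of (FPKM + 1) in potent over control (x axis) and in arf7 over control (y axis) for the 9 early auxin-induced Aux/IAA genes (filled) and 19 other Aux/IAA genes (open); both axes share the control. IAA1, IAA5 and IAA19 are the only genes of the 28 in the lower right part of the plot. IAA5 is listed at 0 in arf7.

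Other early auxin response genes showed larger differences in potent. Of 15 such genes outside the Aux/IAA family, 11 were above 0. By the authors' deposited table potent had 6 that rose and 1 that fell, while arf7 had 1 that rose. In either direction, 7.36% of loci above 0 are listed for potent and 4.57% for arf7. GH3.1, GH3.5 and GH3.6, whose enzymes join auxin to amino acids, and LBD16, LBD29 and LBD33, lateral organ boundaries domain regulators of lateral root formation, were those that rose in potent, with LBD29 also rising in arf7. HAT2, a homeodomain-leucine zipper gene induced by auxin, fell in potent, with 15.4 FPKM against 59.8 in the control. By value, 5 of the 15 were at least 2-fold higher in arf7 than in the control, beside 12.9% of loci, and none was 2-fold lower: LBD16 (31.2 FPKM in arf7 and 1.92 in the control), GH3.5, GH3.6, LBD18 and LBD29. In these genes too potent exceeded arf7 by at least 2-fold in 6 cases (8.57% of loci) and the reverse in none (5.62% of loci). Among the unlisted ones GH3.2 had 38.1 FPKM in potent, 0.186 in arf7 and 0.238 in the control, and ARF19, a close relative of ARF7, had 4.00, 5.52 and 7.13 FPKM in potent, arf7 and the control.

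The altered genes were measured alongside. ARF7 had 9.35 FPKM in potent, 2.64 in arf7 and 12.0 in the control, and IAA18 had 21.8, 19.1 and 10.6 FPKM in potent, arf7 and the control. Neither is in the authors' deposited table.

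Profiles most like those of the 4 genes averaging at least 5 FPKM were sought among 11940 loci at that level, by Euclidean distance of log2(FPKM + 1) centred over the 3 genotypes. For IAA2 the nearest 3 were UGT74F1, AT4G15120 and MBF1C, at distances of 0.021 to 0.026. For IAA3 they were WRKY14, ANAC087 and AT1G78420 (0.006 to 0.011), and for IAA4 AT1G74410, SUC1 and GBF4 (0.012 to 0.013). IAA19 had AT4G08540, AT5G21940 and AT1G64450 (0.028 to 0.042). No Aux/IAA gene was among these nearest loci. IAA2 lay at a distance of 0.390 from IAA4, 0.505 from IAA3 and 0.658 from IAA19. Which Aux/IAA gene was nearest to each was not determined.

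Marker genes of root tissues were present in all 3 genotypes, with all 19 root hair, xylem, endodermis and stele markers above 0 in each, and several lists moved with genotype. Summed FPKM of 6 root hair markers was 2450 in potent, 1440 in arf7 and 420.0 in the control, with 5 of the 6 higher in each line. RHD6, a regulator that starts hair development, went the other way, with 6.29 FPKM in potent, 10.9 in arf7 and 32.2 in the control. The 5 xylem markers, all higher in both lines, summed to 439 FPKM in potent, 433 in arf7 and 92.6 in the control. Endodermis markers summed to 6170 FPKM in potent, 5570 in arf7 and 2170 in the control, with 4 of 5 higher in each line. Most of that sum was CASP1, with 4250 FPKM in potent, 3350 in arf7 and 1380 in the control. SCR was lower in arf7 (21.2 FPKM against 25.5 in the control), and MYB36 was lower in potent (73.0 against 83.1). The root hair, xylem and endodermis sums were higher in both lines, as were those of the stele and green shoot markers given below. IAA2, IAA3 and IAA4 had the same order, which 36.0% of the loci above 0 in any genotype held. The 3 stele and pericycle markers did not move together: PHO1 had 52.4 FPKM in potent, 43.5 in arf7 and 3.72 in the control, but WOL had 5.36 FPKM in potent, 14.7 in arf7 and 27.0 in the control. SHR had 16.8 FPKM in potent, 23.6 in arf7 and 19.3 in the control, and the list summed to 74.6 FPKM in potent, 81.8 in arf7 and 50.0 in the control. The 5 dividing-cell markers summed to 53.7 FPKM in potent, 11.5 in arf7 and 48.2 in the control. With CYCB1;4 at 0 in arf7, all 5 were lower there than in the control, as were IAA1, IAA5, IAA6, IAA19, IAA29 and 50.0% of loci. In potent the sum joins members that differ in direction: 4 of 5 were higher than in the control, among them CDKB2;1 with 17.8 FPKM in potent and 2.39 in the control, while CYCA3;2 had 1.80 in potent and 23.5 in the control. The 3 green shoot markers summed to 68.3 FPKM in potent, 32.9 in arf7 and 13.7 in the control, with LHCB1.2 at 0 in the control. The part of these shifts in the Aux/IAA values was not tested.

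For 2 members another gene overlaps on the opposite strand, and the library protocol named does not mark strand. IAA3 shares 640 bases with AT1G04230, which had 5.51 FPKM in potent, 6.30 in arf7 and 7.56 in the control. IAA5 shares 48 bases with the cyclin gene CYCA2;3 (AT1G15570), which had 1.45 FPKM in potent, 1.10 in arf7 and 3.35 in the control. Both partners were lower in the mutants than in the control. IAA3 was higher in both lines, and IAA5 was higher in potent but lower in arf7, as its partner was. Whether reads of the partners enter the values of IAA3 and IAA5 was not tested.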

How the data were processed

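RNA-seq values came from 9 samples in 3 groups, taken from the sample titles. The authors deposited 1 FPKM value per locus and genotype. The header gives no unit; FPKM was inferred from Cufflinks and Cuffdiff, which appear with Bowtie2, TopHat2 and build TAIR10 in the submitters' processing notes. Roles and settings of these tools are not stated in the labels. The authors' deposited comparison table gives a log2 fold change and a q-value (0.00145 to 0.00945) for 2577 entries, none smaller in size than 1.14 on the log2 scale, so a locus missing from it may still differ. The depth is unknown, so no interval or floor was computed.

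Computed here were ratios, log2((FPKM + 1)/(FPKM + 1)), and counts past 2-fold, with no test. The design foresaw limma if values per sample existed. Python 3.11.15, pandas 2.3.3 and Biopython 1.88 were used, and the counting and motif search were tested on simulated data. Loci were matched by identifier to RefSeq's TAIR10.1 annotation, in which all 9 genes were found; sequences and positions come from it. The members and gene lists were chosen with earlier results of these data known. Named beyond the 9 were listed genes, head-to-head neighbours, the 2 highest others of each list and the nearest profiles, with the altered genes, overlapping genes and markers; other Aux/IAA and early auxin genes past 2-fold were named after their values were seen. Protein sequences were not used here.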

Additional observations from a re-analysis of the deposited data

How the results depend on the processing

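Scaling the genotypes to equal sums or equal upper quartiles kept the counts past 2-fold in all 3 comparisons and shifted the median of all loci by at most 0.044 on the log2 scale. With a pseudocount of 0.1, 3 genes passed 2-fold in arf7 against control (1 higher, 2 lower) in place of 1, because low values count for more. With a pseudocount of 5, which shrinks low genes, 1 gene passed in potent against control (median log2 ratio 0.38), 0 in arf7 against control and 0 in potent against arf7. Among members at 1 FPKM or more in either group, the median was 1.05 in potent against control, 0.63 in arf7 against control, where that of all 9 was negative, and 0.89 in potent against arf7. Among members above 0 in all genotypes it was 0.24 in arf7 against control and 0.47 in potent against arf7. These follow from the low members being left out. No single gene past 2-fold changed direction under the pseudocounts or scalings. No paired analysis was possible because the table holds 1 combined value per genotype, so neither the replicate numbers nor leaving out a sample could be used.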
